A study of Arabidopsis thaliana with 12 samples.

Results

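The genes described here encode proteins of the cytosolic ribosome of Arabidopsis thaliana, and were taken as a fixed list of 54 loci: 33 genes of the 60S subunit and 21 genes of the 40S subunit. All 54 were found among the 32592 loci of the data, and all 54 passed the filter of a mean of at least 1 RPKM (reads divided by transcript length and library size), which 17207 loci passed. They fall into 28 protein families, of which 7 had 1 gene on the list, 16 had 2 and 5 had 3. The annotation describes the products of the listed genes as ribosomal proteins, except that RPL3A, RPL10C and RPL13B are entered under the older names RP1, SAG24 and BBC1.

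The plants were C24xCol, an F1 hybrid with C24 as its mother, ColxC24, the reciprocal F1 hybrid with Col as its mother, and the parental accessions C24 and Col (Columbia). Rosette leaves of soil-grown plants aged 3 weeks, which had not bolted, were taken at zeitgeber times ZT0, ZT6 and ZT15 (hours after lights on) in a cycle of 16 h light and 8 h dark. Each of the 12 combinations was 1 mRNA-seq library, and the number of plants behind a library is not given in the sources used here. Without replicates, each test below rests on how far the 4 genotypes depart from a common time course, and a difference is called where its adjusted p is under 0.05.

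The cytosolic ribosome translates the messages of nuclear genes: the 40S subunit reads the mRNA and the 60S subunit joins the amino acids. Each ribosome needs its proteins in matched amounts, and in Arabidopsis most of these proteins are encoded by several paralogs, so that a family's message is the sum of several genes. Making ribosomes is among the costliest tasks of a growing leaf cell, and in plants it is tied to light and sugar through the TOR kinase. Mutants of single ribosomal protein genes, such as RPS18A, RPS13A, RPL4D or RPL5A, have pointed leaves or altered leaf polarity.

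The estimated depth was 16.6 (Col at ZT0) to 26.5 (Col at ZT15) M reads. The lowest value of any listed gene, 1.32 RPKM of RPSaB in C24xCol at ZT0, corresponds to about 34.1 reads per kb of transcript. Median-of-ratios factors, which scale libraries to each other over 19378 loci, lay between 0.837 and 1.101, and the results that move with them are given below. The leaf markers were abundant, with RBCS1A at 22090 to 36760 RPKM over the 12 libraries, whereas the seed and flower genes CRA1, AP1 and PI stayed under 0.2 RPKM. The floral gene AG lay between 0.475 and 1.32 RPKM. Of the root genes, PYK10 reached 9.45 RPKM in Col, and TIP2;3, AGP22 and WOX5 stayed under 1 RPKM.

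Ribosomal protein transcripts were among the most abundant of the leaf. The median of the mean level was 246.4 RPKM over the 54 genes, 256.6 RPKM for the 60S and 219.9 RPKM for the 40S genes. The median gene stood at the percentile 97.2 of the tested loci, and 48 of 54 stood above the 90th. The highest mean levels were 662.9 RPKM of RPS8A (AT5G20290), a protein of the body of the 40S subunit, and 612.8 RPKM of RPL8A (AT2G18020), which lies close to the peptidyl transferase centre. RPL19A (AT1G02780), which forms a bridge between the subunits, followed with 561.1 RPKM and RPS9B (AT5G15200), near the mRNA entry channel, with 516.1 RPKM.

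The lowest mean levels belonged to minor paralogs. RPSaB (AT3G04770), a paralog of the mRNA exit site protein RPSaA, averaged 5.94 RPKM and RPS9C (AT5G39850) 6.55 RPKM. RPL11A (AT2G42740), of the family that binds 5S rRNA with RPL5, averaged 12.2 RPKM, and RPL10B (AT1G26910), of the family that completes the 60S subunit late in its assembly, 19.4 RPKM. The ratio of the highest to the lowest library of a gene had a median of 2.73 and ran between 1.61 (RPS18C) and 11.3 (RPSaB). The extremes fell in the same libraries for most genes: C24xCol at ZT0 was the lowest of the 12 for 48 genes and C24xCol at ZT6 for the other 6, while Col at ZT15 was the highest for 49. These are deposited values, and the share of all loci with extremes in the same libraries is not given here.

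**Figure D1:**
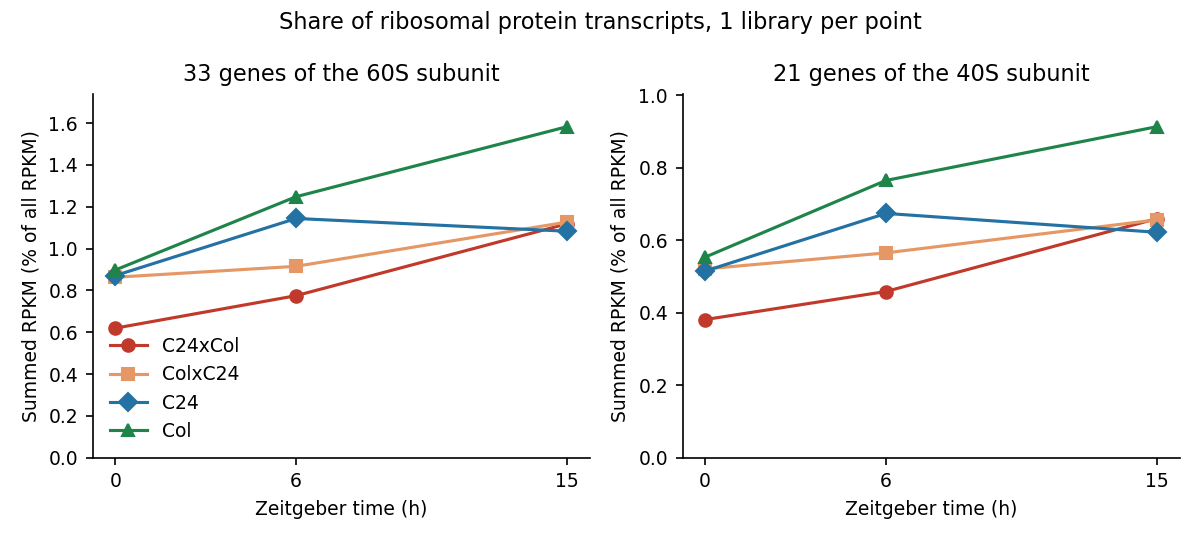
Summed RPKM of the 33 genes of the 60S subunit and of the 21 genes of the 40S subunit, as a percent of all RPKM of the library (vertical axis), against zeitgeber time in hours (horizontal axis). Each point is 1 library and lines join libraries of a genotype; shares are higher at each later time except in C24 after ZT6, and the 60S genes held between 61.8 and 63.5% of the members' sum in all 12 libraries.

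Together the 54 genes held a larger share of all RPKM at ZT15 than at ZT0 in each genotype, as the plot of summed levels by time shows; this share was not tested. They held 1.00, 1.23 and 1.78% of all RPKM at ZT0, ZT6 and ZT15 in C24xCol, and 1.38, 1.48 and 1.78% in ColxC24. They held 1.39, 1.82 and 1.70% in C24, and 1.45, 2.01 and 2.50% in Col. Over the 4 genotypes the share averaged 1.31 ± 0.205% at ZT0, 1.64 ± 0.347% at ZT6 and 1.94 ± 0.372% at ZT15 (SD, n = 4 genotypes). The ratio of the share at ZT15 to that at ZT0 was 1.78 in C24xCol, 1.29 in ColxC24, 1.23 in C24 and 1.72 in Col. The 60S genes made up 62.9 to 63.5% of the summed level of the members at ZT15, against 61.8 to 62.8% at ZT0, a small difference without overlap that was not tested. In bulk tissue, fewer cells of a type and less RNA per cell cannot be told apart, here and in all that follows.

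The first comparison asked how transcripts at ZT15, in the last hour of light, stood to those at ZT0, at lights on. Of the 54 genes, 44 rose and none fell by limma (adjusted p between 7.8e-05 and 0.02), with called differences of 0.47 to 1.47 on the log2(RPKM + 1) scale. Among all tested loci 20.3% rose and 22.3% fell. The median difference was 0.65 over the 54 genes, against 0.00 over all loci, with 28 of 33 genes called and a median of 0.63 for the 60S subunit, and 16 of 21 and 0.67 for the 40S subunit. The 4 libraries of ZT15 lay above the 4 of ZT0 without overlap for 41 of the 44 called genes and for 42 of all 54, against 17.5% of all loci. Of the 44, 43 were higher at ZT15 in each of the 4 genotypes; the exception, RPL11A, was higher in 3.

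RPL4D (AT5G02870), which lines the tunnel through which the new protein leaves the ribosome, had the smallest adjusted p. It was at 364.8, 361.0, 532.8 and 560.8 RPKM at ZT15 in C24xCol, ColxC24, C24 and Col, against 163.6, 209.2, 207.0 and 239.6 RPKM at ZT0 (log2 difference 1.13, SE 0.11, adjusted p = 7.8e-05 by limma). Every library of ZT15 lay above every library of ZT0, and both hybrids lay below both parents at ZT15. Its paralog RPL4A (AT3G09630) was at 262.1, 251.1, 371.2 and 366.5 RPKM at ZT15 and at 129.9, 170.5, 177.9 and 186.6 RPKM at ZT0 in the same order of genotypes (log2 difference 0.90, SE 0.12, adjusted p = 0.00036 by limma). Both genes of the family thus rose, and RPL4A too was higher in both parents than in both hybrids at ZT15.

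The largest difference was that of RPSaB, at 7.26, 7.18, 4.91 and 14.9 RPKM at ZT15 against 1.32, 2.60, 1.86 and 3.54 RPKM at ZT0 in C24xCol, ColxC24, C24 and Col (log2 difference 1.47, SE 0.24, adjusted p = 0.0012 by limma). RPS9C, the other 40S gene of low level, was at 6.08, 7.44, 5.33 and 17.2 RPKM at ZT15 against 2.32, 2.48, 3.501 and 5.02 RPKM at ZT0 (log2 difference 1.12, SE 0.18, adjusted p = 0.0013 by limma). At such levels the added 1 RPKM makes the log2 difference smaller than that of the RPKM themselves. In neither gene did the times overlap, and in both Col at ZT15 was the highest of the 12 libraries. Their abundant paralogs differed less: RPSaA had a difference of 0.50 (adjusted p = 0.0074) and RPS9B of 0.27, which was not called (adjusted p = 0.14).

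RPS6A (AT4G31700), whose protein is phosphorylated by the S6 kinase downstream of TOR, was at 358.3, 360.6, 324.8 and 563.0 RPKM at ZT15 against 138.6, 226.5, 212.0 and 239.5 RPKM at ZT0 (log2 difference 0.97, SE 0.17, adjusted p = 0.0015 by limma). Every library of ZT15 exceeded every library of ZT0. RPS6B (AT5G10360), its paralog, rose by 0.59 (SE 0.13, adjusted p = 0.0066). RPL19B (AT3G16780) rose by 1.02 (SE 0.19, adjusted p = 0.0026), to 83.9, 85.4, 71.5 and 115.0 RPKM at ZT15, against 30.2, 50.3, 46.8 and 47.4 RPKM at ZT0. Its more abundant paralogs RPL19A and RPL19C rose by 0.62 and 0.57. RPL12A (AT2G37190), at the base of the stalk where elongation factors bind, rose by 0.99 (SE 0.19, adjusted p = 0.0026), and RPL12B and RPL12C by 0.56 and 0.75. All 6 of these leading genes were called under each of the 24 alternative settings, as were 32 of the 44.

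Paralogs of further families were called with differences of various size. RPL5A and RPL5B, which carry 5S rRNA into the 60S subunit, rose by 0.54 (adjusted p = 0.012) and 0.96 (adjusted p = 0.0015). RPL10A, RPL10B and RPL10C rose by 0.58, 0.72 and 0.75. RPL23aB, beside the exit of the tunnel, rose by 0.82 (adjusted p = 0.0026), whereas RPL23aA had a difference of 0.33 that was not called (adjusted p = 0.086). RPS18A (AT1G22780), the gene of the pointed first leaf mutant, rose by 0.67 (adjusted p = 0.0032), RPS18B had 0.37 (adjusted p = 0.055) and RPS18C 0.02 (adjusted p = 0.89). Differences between paralogs were not themselves tested. Of the 21 families with several listed genes, all genes were called in 14 and some in 7; of the 7 families with 1 listed gene, 6 were called.

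The 10 genes that were not called had differences between -0.06 and 0.46. RPL10aA (AT1G08360), of the L1 stalk where spent tRNA leaves, was the only gene below 0 (-0.06, SE 0.13, adjusted p = 0.74). It was at 205.9, 228.4, 186.6 and 283.7 RPKM at ZT15 against 171.0, 233.2, 263.0 and 281.8 RPKM at ZT0, so the groups overlapped and the genotypes were split 2 to 2. RPS18C (AT4G09800) was nearly level, at 139.5, 153.6, 130.0 and 192.2 RPKM at ZT15 against 130.5, 144.4, 158.7 and 168.1 RPKM at ZT0. The others were RPS13A, RPS9B, RPL23aA, RPS4A, RPL18C, RPS18B, RPL10aB and RPL24B, the last being the gene known for reinitiation after upstream reading frames. With median-of-ratios scaling 44 genes were again called, against 21.3% of all loci.

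**Figure D2:**
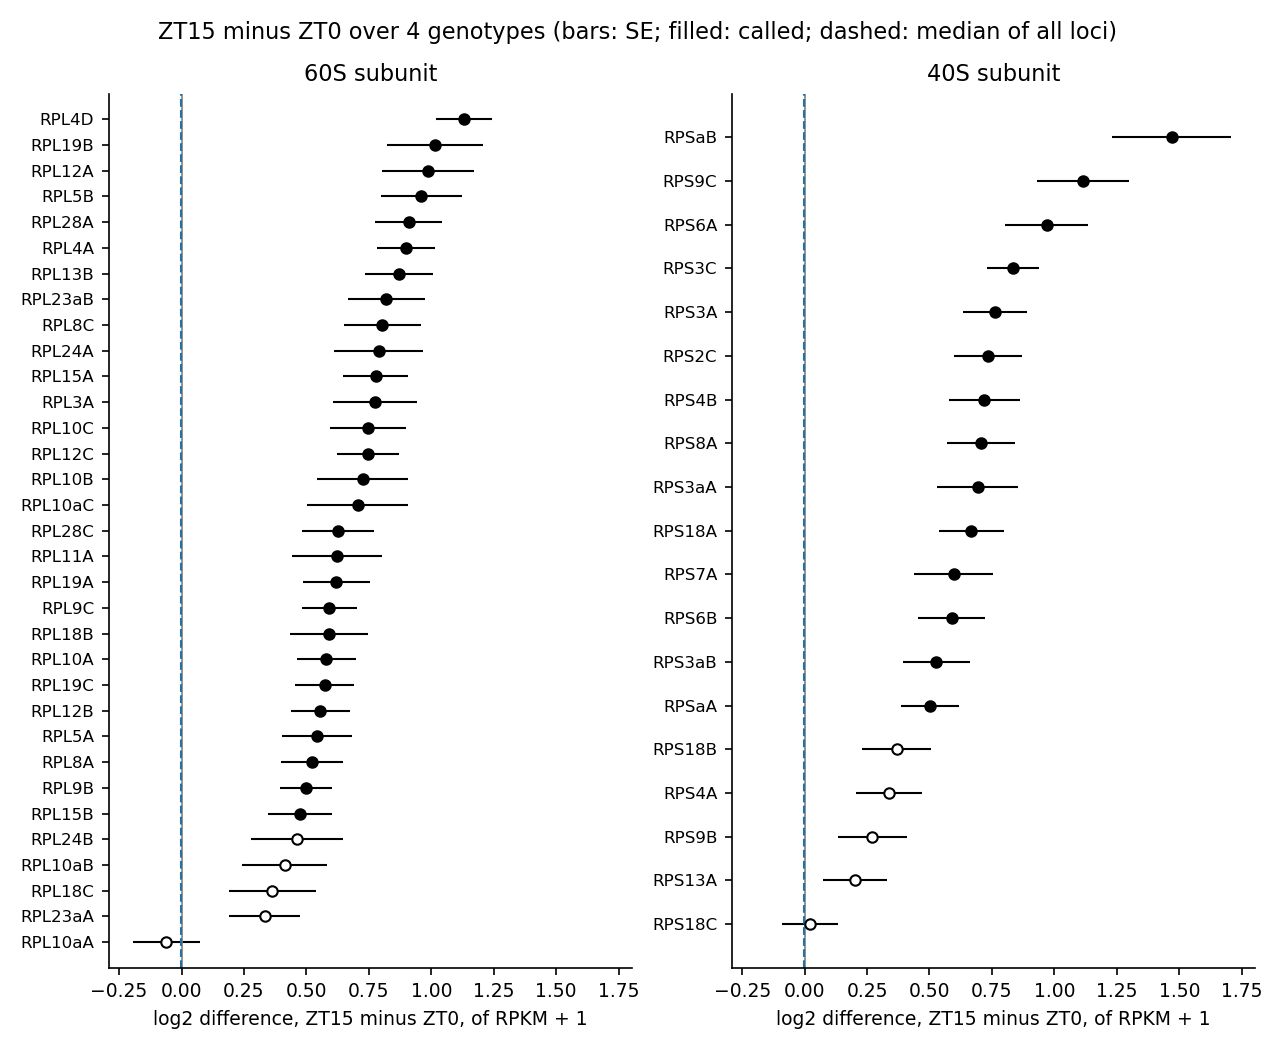
Log2 difference of RPKM + 1 between ZT15 and ZT0 (horizontal axis) for the genes of the 60S subunit and those of the 40S subunit that are reported singly (vertical axis), over 4 genotypes. Points are limma estimates and bars their standard errors; filled points are called, the 10 open points are not, and all points but RPL10aA lie to the right of the dashed median of all loci.

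The comparison of ZT6 with ZT0 covers the first part of the light period. It shares the libraries of ZT0 with the comparison above, so the results are not independent. Of the 54 genes 25 rose and none fell (adjusted p between 0.0016 and 0.046 by limma), by 0.38 to 1.18, while 12.5% of all loci rose and 26.8% fell. The median was 0.41 over the 54 genes against -0.14 over all loci. All 25 were higher at ZT6 in each of the 4 genotypes, and for 7 genes the 4 libraries of each time did not overlap, against 8.43% of all loci. The count was 15 without Col at ZT0, 12 without C24xCol at ZT0, 16 without C24 at ZT6, 10 without all libraries of Col and 14 without those of C24xCol. With median-of-ratios scaling it was 40, against 18.9% of all loci.

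RPSaB and RPS9C, which had large differences at ZT15, also led at ZT6. RPSaB was at 3.63, 4.26, 8.76 and 11.1 RPKM at ZT6 in C24xCol, ColxC24, C24 and Col, all above its values at ZT0 (log2 difference 1.18, SE 0.24, adjusted p = 0.004 by limma). RPS9C was at 7.55, 5.19, 5.96 and 10.5 RPKM, likewise above each value at ZT0 (log2 difference 0.94, SE 0.18, adjusted p = 0.0035). RPS6A was at 226.0, 309.2, 414.9 and 401.5 RPKM (log2 difference 0.71, SE 0.17, adjusted p = 0.0078), with C24xCol at ZT6 just under ColxC24 and Col at ZT0. The 2 parents thus stood above both hybrids in this gene at ZT6. RPL19B rose by 0.75 (adjusted p = 0.012), RPL4D by 0.67 (adjusted p = 0.0016) and RPL3A, which lies at the peptidyl transferase centre, by 0.67 (adjusted p = 0.012).

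Several paralogs of these genes were called with smaller differences. RPL4A rose by 0.38 (adjusted p = 0.028), RPS6B by 0.38 (adjusted p = 0.046) and RPL19A by 0.38 (adjusted p = 0.045). RPL5B and RPL23aB rose by 0.57 and 0.66, while RPL5A and RPL23aA had 0.21 and 0.06 and were not called. RPL10A, RPL10B and RPL10C rose by 0.51, 0.59 and 0.50. RPS18B rose by 0.46 (adjusted p = 0.025); RPS18A had 0.36 (adjusted p = 0.055) and RPS18C 0.03. RPSaA, RPS9B and RPL19C, with 0.28, 0.38 and 0.32, were not called either (adjusted p between 0.051 and 0.081). RPL10aA was again the only gene below 0 (-0.18, adjusted p = 0.31), and it was lower at ZT6 in all 4 genotypes.

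The interval after ZT6 had fewer calls. In ZT15 minus ZT6, 9 genes rose and none fell (adjusted p between 0.012 and 0.049 by limma), with 17.0% of all loci higher and 8.48% lower. The share of the 54 genes called higher was thus close to that of all loci. The medians were 0.26 for the 54 genes and 0.12 for all loci. RPL4A led with 262.1, 251.1, 371.2 and 366.5 RPKM at ZT15 against 159.3, 200.3, 231.3 and 287.9 RPKM at ZT6 in C24xCol, ColxC24, C24 and Col (log2 difference 0.52, SE 0.12, adjusted p = 0.012). The groups overlapped, although each genotype was higher at ZT15. RPL4D rose by 0.46, RPL9C by 0.45, RPS8A by 0.44, RPS2C by 0.43 and RPL15A by 0.42, and RPL8A and RPL9B, also called, by 0.38 each. RPL9B and RPL9C are neighbouring paralogs whose reads may not be told apart in full, and RPL15B, the paralog of RPL15A, had 0.26 (adjusted p = 0.16). RPS8A and RPL8A, among the most abundant of the 54, were thus called here and not at ZT6 against ZT0, where they had 0.27 and 0.14.

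For 2 of the 9 called genes, RPL9C and RPS8A, and for RPL13B, which was not called, the times did not overlap. Among all loci this share was 15.3%, larger than among the 54 genes. The members with the lowest differences were RPS9B (-0.11, adjusted p = 0.58) and RPS18B (-0.09, adjusted p = 0.66). Unlike those for ZT15 against ZT0, these calls moved with the scaling of the libraries. With median-of-ratios scaling no gene was called, against 10.8% of all loci higher, and at an unadjusted p under 0.05 the fit of the deposited values had 20 of 54 genes, all higher, against 39.2% of all loci in either direction. The count was 4 without C24xCol at ZT0, 3 without ColxC24 at ZT6, 3 without C24xCol at ZT6, 2 without Col at ZT15, 15 without C24 at ZT15 and 1 without C24xCol at ZT15. Without all libraries of a genotype it was 0 (C24xCol), 2 (ColxC24), 14 (C24) and 1 (Col).

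**Figure D3:**
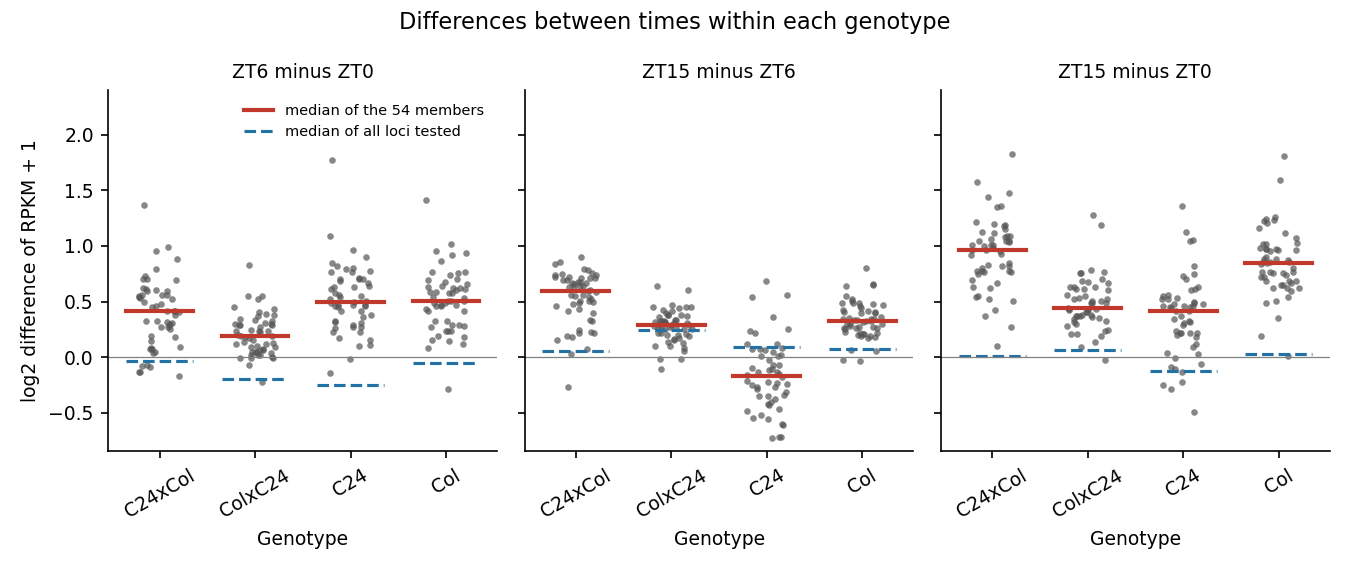
Log2 difference of RPKM + 1 between times (vertical axis) for each of the 54 genes, by genotype (horizontal axis), 1 library against 1; points are genes, with a random sideways shift. The red line is the median of the 54 genes and the dashed line that of all tested loci; in C24 the median of ZT15 minus ZT6 lies below 0, at -0.17, and in the other 3 genotypes above.

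Within single genotypes there is 1 library per time, so the values describe those libraries and no test was made. For ZT6 minus ZT0 the median difference of the 54 genes was 0.41 in C24xCol, 0.19 in ColxC24, 0.50 in C24 and 0.51 in Col, and 48, 48, 52 and 53 genes were higher at ZT6. Over all loci the medians were -0.04, -0.19, -0.25 and -0.06, with 47.4, 33.7, 33.9 and 45.7% higher at ZT6. For ZT15 minus ZT6 the median of the 54 genes was 0.59, 0.29, -0.17 and 0.33, with 53, 51, 17 and 52 genes higher at ZT15. Over all loci the medians were 0.06, 0.25, 0.09 and 0.08, with 55.1, 73.9, 58.0 and 56.6% higher at ZT15. In ColxC24 the median of all loci was thus close to that of the 54 genes. In C24 most of the 54 genes were therefore lower at ZT15 than at ZT6, and in the other 3 genotypes most were higher. The genes of C24 with the opposite sign include RPL4D at 532.8 RPKM at ZT15 against 367.0 at ZT6, RPL4A at 371.2 against 231.3, and RPS2C (AT2G41840) at 588.0 against 399.5. RPS6A in C24 followed the majority, with 324.8 RPKM at ZT15 against 414.9 at ZT6. With median-of-ratios scaling the medians of ZT15 minus ZT6 were 0.51, -0.02, -0.30 and 0.27, so the sign in ColxC24 depends on the scaling.

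For ZT15 minus ZT0 the median was 0.96 in C24xCol, 0.44 in ColxC24, 0.42 in C24 and 0.85 in Col. All 54 genes were higher at ZT15 in C24xCol and in Col, 53 in ColxC24 and 45 in C24. Over all loci the medians were 0.01 in C24xCol, 0.06 in ColxC24, -0.13 in C24 and 0.03 in Col, with 50.9, 55.4, 39.8 and 51.9% higher. The 2 largest medians of the 54 genes belong to the genotype with the lowest levels at ZT0, C24xCol, and to that with the highest levels at ZT15, Col. The medians are made from these same levels, so the match is not a separate observation. Whether these differences between genotypes exceed the spread between plants cannot be tested with 1 library each.

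The parents were compared over the 3 times. The genome build was that of Col, and whether this affects the values of C24 and of the hybrids was not tested. In C24 minus Col 2 of the 54 genes fell and none rose by limma, with 9.12% of all loci lower and 4.46% higher in C24. RPS3C (AT5G35530), of the mRNA entry channel, was at 74.4, 115.8 and 122.1 RPKM at ZT0, ZT6 and ZT15 in C24, against 110.9, 169.7 and 203.8 RPKM in Col (log2 difference -0.62, SE 0.12, adjusted p = 0.010). RPS9C was at 3.501, 5.96 and 5.33 RPKM in C24 against 5.02, 10.5 and 17.2 RPKM in Col (log2 difference -0.89, SE 0.21, adjusted p = 0.025). Both were lower in C24 at each time, and in RPS9C the gap was widest at ZT15. The paralogs RPS3A and RPS9B had -0.29 (adjusted p = 0.23) and -0.28 (adjusted p = 0.27).

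Neither call held under all settings. RPS3C lost it without C24 at ZT15 (log2 difference -0.54, adjusted p = 0.051), without all libraries of ZT0 (-0.64, adjusted p = 0.12) and without those of ZT15 (-0.56, adjusted p = 0.16), so its difference stayed close in size. RPS9C lost it without Col at ZT15 (-0.67, adjusted p = 0.10), without C24 at ZT15 (-0.68, adjusted p = 0.11), without ZT0 (-1.12, adjusted p = 0.065) and without ZT15 (-0.57, adjusted p = 0.26). The count of called genes was 1 without Col at ZT15, 0 without C24 at ZT15 and 7 without C24 at ZT6, and 0 without all libraries of ZT0 or of ZT15. By the unadjusted p, 10 genes were under 0.05, all lower in C24, while 29.8% of all loci passed in either direction. RPS2C, which lies at the mRNA entry channel, was the only gene above 0 (0.04, adjusted p = 0.89 by limma). The median was -0.22 against -0.12 over all loci. With median-of-ratios scaling 11 of the 54 genes lay above 0 and 43 below, with a median of -0.09 against -0.01 over all loci.

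The difference between parents was uneven over the day. The median of C24 minus Col was -0.08 at ZT0, -0.11 at ZT6 and -0.59 at ZT15, where 52 of 54 genes were lower in C24. Over all loci the medians were -0.02, -0.19 and -0.16, and 63.9% of loci were lower in C24 at ZT15. Under median-of-ratios scaling the median of the 54 genes was -0.11, 0.14 and -0.43, so at ZT6 the direction flips with the scaling. Among the preset genes, RPS6A and RPS6B had -0.31 (adjusted p = 0.31) and -0.42 (adjusted p = 0.10), and RPL10A, RPL10B and RPL10C -0.04, -0.22 and -0.32. RPL23aB had -0.53 (adjusted p = 0.081), RPS18B -0.38 and RPS18C -0.32. None of these was called.

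The hybrids were set against the mid-parent, the mean of both parents on the log2 scale. No gene was called by limma in either direction, with 0.413% of all loci higher and 0.11% lower in the hybrids. All 54 estimates lay below 0, between -0.56 and -0.18, with a median of -0.33 against -0.06 over all loci. All 54 were also below 0 at each of the 3 times, where the medians were -0.29 at ZT0, -0.52 at ZT6 and -0.18 at ZT15. Of all loci 69.4, 60.7 and 54.8% were lower at these times, with medians of -0.11, -0.07 and -0.02. Adjusted p lay between 0.082 and 0.62 by limma. At an unadjusted p under 0.05, 42 of 54 genes were lower, against 11.8% of all loci in either direction. With median-of-ratios scaling all 54 estimates stayed below 0, with a median of -0.25. At single times the medians were then -0.17, -0.42 and -0.17, and 8 of the 54 genes lay above 0 at ZT0. The low position at ZT0 was mainly that of C24xCol. There the 54 genes summed to 8539 RPKM in C24xCol and 11730 RPKM in ColxC24, against 11620 RPKM in C24 and 11910 RPKM in Col. With median-of-ratios scaling these sums were 8421, 11940, 10590 and 11040, so ColxC24 lay above both parents. The 54 estimates share the same 12 libraries and are not independent of each other.

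RPL4D came closest to the threshold: it was at 163.6, 239.3 and 364.8 RPKM at ZT0, ZT6 and ZT15 in C24xCol and at 209.2, 301.9 and 361.0 RPKM in ColxC24, against 207.0, 367.0 and 532.8 RPKM in C24 and 239.6, 408.7 and 560.8 RPKM in Col (log2 difference -0.46, SE 0.09, adjusted p = 0.082). At ZT6 and ZT15 both hybrids stood below both parents. The lowest estimates were those of RPSaB (-0.56, SE 0.19, adjusted p = 0.27) and RPL12A (-0.55, SE 0.15, adjusted p = 0.19), and the nearest to 0 were those of RPL19A and RPS9B, both -0.18 with an adjusted p of 0.62. RPS6A had -0.41 (adjusted p = 0.26) and RPS6B -0.36 (adjusted p = 0.23). Without the library of C24 at ZT15, 3 genes were called lower, RPL11A, RPL10aC and RPL28C; each other setting tried left 0.

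At single times the position of both hybrids relative to both parents was counted without a test. At ZT6, 53 of 54 genes were lower in both hybrids than in both parents, against 19.0% of all loci. At ZT0 there were 21 such genes, against 24.5% of all loci, and at ZT15 there were 13, against 12.9%. With median-of-ratios scaling the counts were 5, 31 and 19 at ZT0, ZT6 and ZT15, against 12.9, 13.9 and 13.6% of all loci. C24xCol was the lowest genotype for all 54 genes at ZT0 and for 50 at ZT6, against 23.6 and 18.9% of all loci, while at ZT15 C24 was the lowest for 36, against 46.5%. ColxC24 was the highest genotype for 13 genes at ZT0, against 10.9% of all loci, and for 31 with median-of-ratios scaling, against 20.3%. Col was the highest for 34, 33 and 52 genes at ZT0, ZT6 and ZT15, against 39.2, 44.7 and 48.8% of all loci. With median-of-ratios scaling Col was the highest for 21, 10 and 50, against 32.8, 27.0 and 36.9% of all loci.

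**Figure D4:**
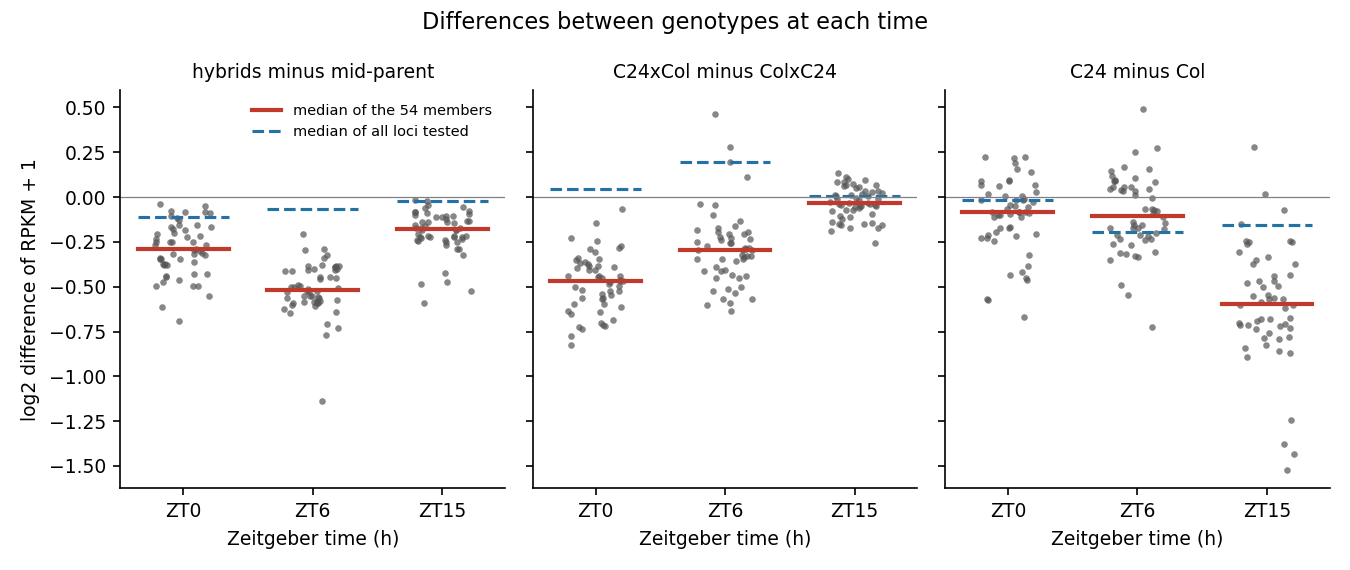
Log2 difference of RPKM + 1 between genotypes (vertical axis) for each of the 54 genes at each time (horizontal axis, ZT in hours); hybrids minus mid-parent uses 4 libraries per time and the other panels 1 against 1. The red line is the median of the 54 genes and the dashed line that of all tested loci; all points of the first panel lie below 0, with the lowest median, -0.52, at ZT6.

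The reciprocal hybrids differ in which accession was the mother. No gene was called in C24xCol minus ColxC24, with 0.0% of all loci higher and 0.0% lower by limma. The median was -0.28, against 0.08 over all loci, and 52 of 54 genes lay below 0. At an unadjusted p under 0.05, 6 genes were lower and none higher, against 4.48% of all loci in either direction, and adjusted p lay between 0.74 and 0.95. The lowest estimates were those of RPL10aC (-0.48, SE 0.23) and RPL23aB (-0.46, SE 0.18), and the highest those of RPS9C and RPL19C (both 0.05). The medians were -0.47 at ZT0, -0.29 at ZT6 and -0.04 at ZT15. RPS6A, at 138.6, 226.0 and 358.3 RPKM in C24xCol against 226.5, 309.2 and 360.6 RPKM in ColxC24, shows this course, with nearly equal values at ZT15. Over all loci the medians were 0.04, 0.20 and 0.00, with 56.5, 68.9 and 51.1% of loci higher in C24xCol. With median-of-ratios scaling the medians of the 54 genes were -0.51, -0.52 and -0.03. The smaller difference at ZT6 than at ZT0 therefore depends on the scaling.

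The remaining genes of the translation machinery were followed through lists of their own. At ZT15 against ZT0, 20.3% of all loci rose and 22.3% fell. Of 162 other cytosolic ribosomal protein genes 151 were tested, and at ZT15 against ZT0 102 rose and none fell, with a median of 0.61. RPL3B (AT1G61580), the paralog of RPL3A, had the smallest adjusted p, with a mean of 39.5 RPKM at ZT15 against 10.2 RPKM at ZT0 (log2 difference 1.88, SE 0.15, adjusted p = 2.6e-05). Of 36 ribosome assembly factors 27 rose and 1 fell, with a median of 0.84. NUC-L1, the nucleolin of rRNA processing, averaged 170.9 RPKM at ZT15 against 50.8 RPKM at ZT0 (log2 difference 1.76, adjusted p = 0.00055), and FIB2, the fibrillarin that methylates rRNA, 53.1 RPKM against 13.7 RPKM (log2 difference 1.98, adjusted p = 0.00041). Of 39 plastid ribosomal protein genes 20 rose and 1 fell (median 0.41), of 12 elongation factors 6 rose and 1 fell, and of 28 initiation factors 13 rose and none fell. Among 9 genes of the TOR pathway 2 rose and 4 fell; the S6 kinase gene PK1 averaged 37.0 RPKM at ZT15 against 78.3 RPKM at ZT0 (log2 difference -1.06, adjusted p = 0.00048).

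At ZT6 against ZT0, 58 of the 151 other cytosolic genes rose and none fell, and 20 of 36 assembly factors rose and 1 fell, while 1 of 39 plastid genes rose and 1 fell. Among all loci 12.5% rose and 26.8% fell. At ZT15 against ZT6 the counts were 37 and 0 for the other cytosolic genes, 1 and 0 for the assembly factors, and 11 and 1 for the plastid genes. Among all loci 17.0% rose and 8.48% fell in this interval. With median-of-ratios scaling most of the later calls of these lists were lost, leaving 12 and 0, 0 and 0, and 1 and 1. Of all loci 10.8% were then called higher. The median of the plastid genes was 0.02 in the earlier interval and 0.35 in the later; with median-of-ratios scaling it was 0.17 and 0.20. For the 54 genes these medians were 0.41 and 0.26, and 0.56 and 0.11 with that scaling. Over all loci they were -0.14 and 0.12, and -0.01 and -0.002 with that scaling.

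The lists were also compared between genotypes. In C24 minus Col, 10 of the 151 other cytosolic genes fell and none rose, 3 of 36 assembly factors fell, and no plastid gene was called (medians -0.25, -0.52 and 0.01). Among all loci 9.12% fell, with a median of -0.12, so the counts of these lists were not above the share of all loci. With median-of-ratios scaling 8 of the other cytosolic genes and none of the assembly factors were called lower, and the medians of these lists were -0.12 and -0.40. The most different were AT1G58684 and AT1G59359, whose values are nearly equal and uncertain if reads were divided between similar genes, each with a log2 difference of -1.99 (adjusted p = 8.2e-06). In the hybrids against the mid-parent, 3 of 151 other cytosolic genes fell, AT3G57490, AT5G67510 and AT2G19750 (-0.74, -0.58 and -0.58), and all 151 lay below 0, with a median of -0.33. Of the assembly factors 3 fell, SWA1, FIB1 and AT3G03920 (-0.81, -0.62 and -0.68, adjusted p = 0.022, 0.039 and 0.047 by limma), and all 36 lay below 0, with a median of -0.63. The plastid genes had a median of 0.07 and none was called. Among all loci 0.11% were called lower in the hybrids, with a median of -0.06. With median-of-ratios scaling 1 of the other cytosolic genes and 1 assembly factor were called lower in the hybrids. Of the elongation factors 1 fell in C24 against Col and none was called in the hybrids against the mid-parent (medians -0.25 and -0.23); no initiation factor and no TOR pathway gene was called in either comparison. Between the reciprocal hybrids no gene of any list was called, and the medians were -0.28 for the other cytosolic genes, -0.06 for the assembly factors, -0.30 for the plastid genes and 0.20 for the TOR pathway.

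Markers of dividing cells moved with time too. Of 12 such genes 9 were tested, and 7 of these rose at ZT15 against ZT0 and none fell, with a median of 0.45. Among all loci 20.3% rose and 22.3% fell. The summed level of the 12 genes was 31.9 to 56.6 RPKM at ZT0, 50.8 to 70.4 RPKM at ZT6 and 59.9 to 80.4 RPKM at ZT15. PCNA2, the clamp of DNA replication, had the smallest adjusted p (log2 difference 0.78, adjusted p = 0.0017), while the meristem gene STM stayed at or under 0.0624 RPKM and CYCB1;1 at 0.252 to 1.15 RPKM. The 4 mesophyll genes held 4.33 to 5.71% of all RPKM at ZT15 and 5.44 to 7.29% at ZT0, with CAB2 and RCA called lower at ZT15. They did not move together: 3 lay below 0 and 1 above. CA1 was not called and averaged 7084 RPKM at ZT15 against 6353 RPKM at ZT0. CAB2 also changed within the light period, from a mean of 10890 RPKM at ZT6 to 289.7 RPKM at ZT15. SYP111, a syntaxin of the cell plate, was lower in C24 (2.93 RPKM) than in Col (6.76 RPKM), and was the only 1 of the 9 dividing-cell genes called between the parents. Of all loci 9.12% were called lower in C24. The median of the 9 was -0.06 against -0.12 over all loci, with 8 below 0. With median-of-ratios scaling it was 0.01, with 5 above 0 and 4 below. The root gene PYK10, the only one of 4 root genes tested, was also lower in C24 (0.278 RPKM in C24 and 4.75 RPKM in Col). None of 4 flower and seed genes passed the filter. The part of these shifts in the differences of the ribosomal protein genes was not tested.

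**Figure D5:**
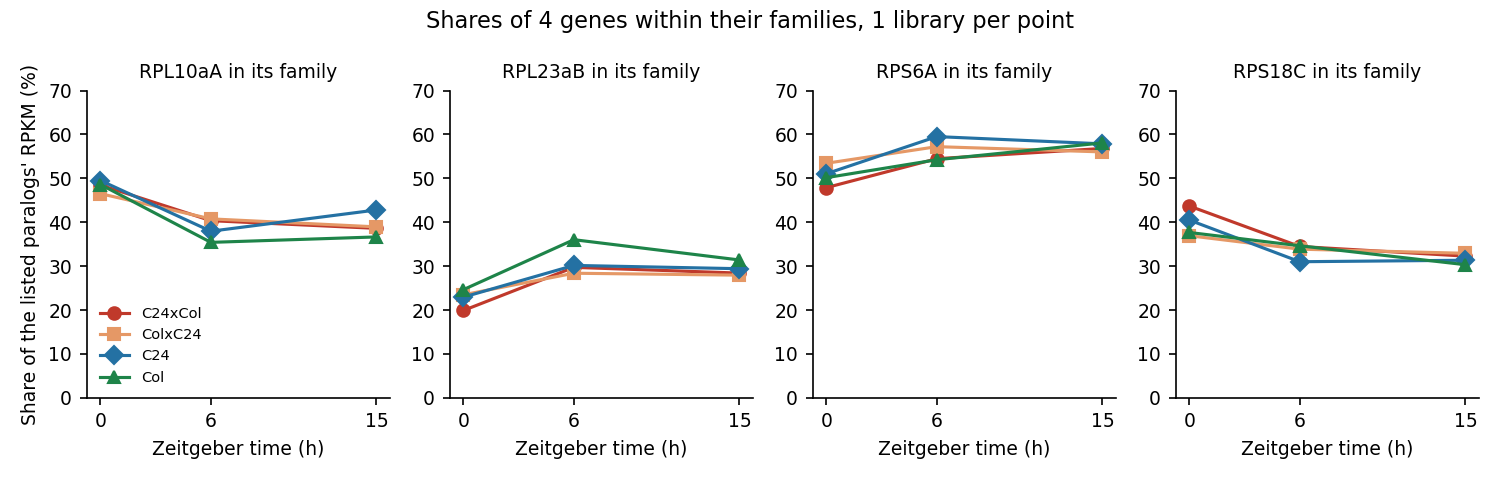
Share of 1 gene in the summed RPKM of the listed genes of its family, in percent (vertical axis), against zeitgeber time in hours (horizontal axis), for RPL10aA, RPL23aB, RPS6A and RPS18C. Each point is 1 library and lines join libraries of a genotype; RPL10aA and RPS18C held less of their families at ZT15 than at ZT0 in all 4 genotypes, and RPL23aB and RPS6A more.

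The makeup of families was described by the share of each gene. The share of each of the 47 genes with a listed paralog in its family's summed RPKM was compared between times as a description. At ZT15 it was above all values of ZT0 for 11 genes and below all for 10, and it overlapped for 26. Shares of a family sum to the whole, so a gene that is higher in a pair makes its paralog lower, and these counts are not of separate observations. The range over the 12 libraries had a median of 9.49 percentage points and was under 10 for 26 genes. RPL23aB held 27.9 to 31.4% of its family at ZT15, against 19.9 to 24.6% at ZT0, with 28.4 to 36.0% at ZT6. RPL10aA went the other way, with 36.6 to 42.8% at ZT15 against 46.5 to 49.5% at ZT0.

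RPS6A, RPL5B and RPL4D also held larger shares at ZT15 than at ZT0, without overlap. RPS6A held 56.0 to 58.1% of its pair at ZT15 against 47.9 to 53.4% at ZT0. RPL5B held 41.2 to 43.6% at ZT15 against 31.9 to 37.2% at ZT0, and RPL4D 58.2 to 60.5% against 53.8 to 56.2%. RPS18C held 30.3 to 32.9% of its 3 genes at ZT15 against 36.9 to 43.7% at ZT0, while RPS18A held 34.9 to 38.3% against 27.1 to 31.5%. RPSaB remained a small part of its family, with 1.06 to 2.49% at ZT15 against 0.479 to 0.959% at ZT0. Reads of near-identical paralogs may have been divided between genes, so these shares are uncertain where sequences are alike, and only listed paralogs enter the sums.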

How the data were processed

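The authors deposited RPKM values for 38710 gene models in each of 12 libraries, per the file headers; reads were 84 bp long per the labels' protocols, and the build was TAIR 9, a genome of Col, per the submitters' processing notes. How reads were aligned, counted and shared among similar genes is not given in the sources used here. Values of gene models were summed per locus (19 of the 54 genes had more than 1). Loci averaging 1 RPKM or more were kept, and their log2(RPKM + 1) was fitted by limma (3.58.1, under R 4.3.3; genotype and time as additive terms, empirical Bayes with a trend, two-sided, Benjamini-Hochberg over 17207 loci, threshold 0.05). The residual of 6 degrees of freedom stands in for replicates, so p-values do not measure the spread between plants, and whether a genotype's time course differs could not be tested. Depth was estimated from the steps of low values in loci with 1 model; 36.1 to 42.4% of values up to 3.5 reads lay within 1% of a whole number, too few to recover counts. The fit was tested on simulated data.

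The 54 genes and the other lists were chosen with earlier results of these data known. Named for each comparison were up to 6 called genes per direction with the largest difference, the 2 most extreme where none was called, their paralogs, the 4 highest and 4 lowest mean levels, a preset group (RPS6, RPS18, RPL4, RPL5, RPL10 and RPL23a genes), and up to 3 called genes per other list; RPL9B, RPL8A, RPL13B, RPS13A and the other genes left uncalled at ZT15, RPL8A and RPS8A in the earlier interval, and RPL11A, RPL10aC and RPL28C in the hybrids were named after their values were seen. Names came from the annotation TAIR10.1 for 31786 loci, or follow common use. Scaling, pseudocount, filter, gene model, trend and left-out libraries were varied. Sequences and positions were not used here, and some listed genes are counted but not reported singly.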

Additional observations from a re-analysis of the deposited data

Results flagged for a closer look

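In C24 the median log2 difference of the 54 genes for ZT15 minus ZT6 was -0.17, while it was 0.59 in C24xCol, 0.29 in ColxC24 and 0.33 in Col. C24 moved in the opposite direction to the other genotypes, and with 1 library for each genotype and time the difference was not tested. Over all loci the medians were 0.09 in C24, 0.06 in C24xCol, 0.25 in ColxC24 and 0.08 in Col. With median-of-ratios scaling the medians of the 54 genes were -0.30 in C24, 0.51 in C24xCol, -0.02 in ColxC24 and 0.27 in Col.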

How the results depend on the processing

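The count for ZT15 minus ZT0 stayed between 34 and 51 under all 24 alternatives. For ZT6 minus ZT0 it was 40 with median-of-ratios scaling in place of 25, and 10 to 34 with libraries, genotypes or times left out. For ZT15 minus ZT6 it was 0 with median-of-ratios scaling, 2 with quantile normalization and 5 without a filter in place of 9, and 0 to 15 with libraries left out. C24 minus Col gave 0 to 7 in place of 2 and hybrids minus mid-parent 0 to 3 in place of 0 with libraries left out; C24xCol minus ColxC24 gave 0 throughout. Median-of-ratios scaling moved the median of all loci in C24 minus Col to -0.01, in ZT6 minus ZT0 to -0.01 and in ZT15 minus ZT6 to 0.00, in place of -0.12, -0.14 and 0.12.

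Of 144 medians of the 54 genes under alternatives, 143 were counted as kept and 1, for ZT6 minus ZT0, as moved. Medians counted as kept could still shift. For ZT15 minus ZT6 the median was 0.11 with median-of-ratios scaling and 0.12 with quantile normalization, in place of 0.26. For C24 minus Col it was -0.09 and -0.15, in place of -0.22. Of 2900 values of named genes, 2670 kept direction and call, 149 lost the call, 29 gained it and 52 changed sign, the last only among genes not called. Among the genes named for each comparison, the sign changed with median-of-ratios scaling for RPL10A (0.0931) and RPL4A (0.0065) in C24 minus Col. With that scaling the sign also changed for RPS9C (-0.0252) and RPL19C (-0.0425) in C24xCol minus ColxC24, and RPL10A (-0.0802) and RPL10B (-0.0021) in ZT15 minus ZT6. With quantile normalization it changed for RPL10A (0.0318) in C24 minus Col, RPS9C (-0.065) between the hybrids, RPL10A (-0.1171) in ZT15 minus ZT6 and RPS18C (-0.0706) in ZT15 minus ZT0; with the highest gene model only, for RPL23aA (-0.0001) in ZT6 minus ZT0. With libraries left out, C24 minus Col ran over -0.0805 to 0.185 for RPS2C, -0.1343 to 0.1007 for RPL10A and -0.3851 to 0.0512 for RPL10B. C24xCol minus ColxC24 ran over -0.1614 to 0.1984 for RPS9C, -0.0704 to 0.1905 for RPL19C and -0.2886 to 0.1301 for RPL10B. ZT6 minus ZT0 ran over -0.0363 to 0.0895 for RPS18C and -0.0465 to 0.1603 for RPL23aA. ZT15 minus ZT6 ran over -0.2265 to 0.03 for RPS9B, -0.1955 to 0.0775 for RPS18B and -0.0711 to 0.0873 for RPS18C, and ZT15 minus ZT0 over -0.1711 to 0.088 for RPL10aA and -0.039 to 0.1254 for RPS18C. The cause was not tested. Libraries could not be paired by replicate, because the labels carry no replicate numbers. Genotype and time are both terms of the fit, so times were compared within genotypes and genotypes within times.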
